A study of Mus musculus with 6 samples.

Results

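The genes described here are the 2 canonical Hmga genes, Hmga1 and Hmga2, the 3 Igf2bp genes, Igf2bp1, Igf2bp2 and Igf2bp3, and the 2 Lin28 genes, Lin28a and Lin28b, taken by symbol as 7 of the 54429 genes in the count table. The set was chosen by the level of Hmga2, already known to be high in these adult cultures, and by its lower value with Meis1, so the level and change of Hmga2 are given as a description without a test, while the other 6 genes belong to the set by name. Primary aortic endothelial cells (EC) of adult wild-type (WT) C57BL/6 mice carried either a lentiviral Meis1 overexpression vector (Meis1-OE, 3 libraries) or the YFP control vector (YFP-CTRL, 3 libraries), and the comparison asks what added Meis1 changes in adult EC. The EC were bought from a supplier, and the paper describes 3 replicate transductions per condition. How many mice the EC came from is not given, so n = 3 counts libraries and not mice. Cells of both conditions were sorted as YFP+CD31+VEC+ after transduction, plated again and grown to confluency before RNA was taken for ribodepleted RNA-seq. Both conditions are therefore passaged cultures that carry a vector and were selected for it, and the promoter that drives the vector is not given in the sources used here.

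HMGA proteins are small chromatin proteins that bind AT-rich DNA, are abundant in embryonic and tumor cells, and fall to low levels in most adult tissues. LIN28 proteins bind let-7 precursors and block their maturation, and the let-7 microRNAs in turn repress mRNAs that carry matches to their seed, among them Hmga2, the Igf2bp genes and Lin28 itself. The IGF2BP proteins bind mRNAs, Igf2 among them, and affect their stability and translation. High Lin28, Igf2bp and Hmga2 with low mature let-7 is a known feature of fetal cells such as fetal hematopoietic stem cells.

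Since let-7 links the members, its sequences are shown first. The 9 mature let-7 family sequences of mouse (RefSeq, GRCm38.p6), found at 11 loci in the table used, share 1 seed, GAGGUAG, at bases 2 to 8, in capitals below. Of these, 3 are printed to show that the family members differ only outside the seed.
let-7a (Mirlet7a-1, chr13:48538239-48538260, minus strand): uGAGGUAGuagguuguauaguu
let-7g (Mirlet7g, chr9:106178846-106178867, plus strand): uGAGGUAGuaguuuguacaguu
miR-98 (Mir98, chrX:151913229-151913250, plus strand): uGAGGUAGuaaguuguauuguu

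The match to this seed, CTACCTC, was searched on the sense strand of the 3' UTR of 1 annotated transcript of each gene, the one with the longest 3' UTR. All 7 members held it. Hmga2 held 4 matches in a 3' UTR of 3014 bases, Igf2bp1 held 4, Lin28b held 4, Lin28a held 2, and Hmga1, Igf2bp2 and Igf2bp3 held 1 each. Among tested protein-coding genes with an annotated 3' UTR, 10.6% held at least 1 match. Of 11658 protein-coding genes with an annotated 3' UTR, the tested genes together with the members and listed genes that were not tested, 8 held 4 or more, namely Hmga2, Igf2bp1, Lin28b, Hic2, Mcf2l, Nr6a1, Nudt12 and Trim6. The 4 matches of Hmga2 and the single match of Hmga1 and of Igf2bp2, the members with appreciable reads, are shown 5' to 3' with the match in capitals and its first base counted from the start of the 3' UTR.
Hmga2, base 58: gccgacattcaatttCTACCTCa
Hmga2, base 1295: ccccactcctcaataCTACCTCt
Hmga2, base 1733: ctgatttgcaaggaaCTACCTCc
Hmga2, base 2591: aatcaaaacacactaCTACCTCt
Hmga1, base 801: tcctctgttcacaaaCTACCTCt
Igf2bp2, base 1313: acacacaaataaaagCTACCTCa

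A match describes the letters of the 3' UTR only, and mature let-7 was not measured. Sites that pair with only part of this seed were not searched, so a gene without a match may still hold such a site. In the count table the let-7 hairpin genes stood at 0 in all 6 libraries, except that Mir98 had 1 read in Meis1-OE library A and 2 in YFP-CTRL library C.

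Reads were unevenly spread over the members. The HMGA genes were abundant in both conditions and lower in Meis1-OE EC, Igf2bp2 was present with a difference that did not pass the test, and Igf2bp1, Igf2bp3, Lin28a and Lin28b were at or near 0. Values of single libraries are listed in the order A, B and C throughout. Total counts ran from 34176592 to 47956569 per library. Over the 16065 genes that passed the filter on low counts, the quasi-likelihood test of edgeR (Benjamini-Hochberg adjusted p under 0.05) called 665 genes higher in Meis1-OE EC (4.14%) and 438 lower (2.73%), 6.87% in either direction, and the split between higher and lower was 1048 to 179 with library totals in place of TMM scaling and 1128 to 1115 with DESeq2. Values of the 2 conditions did not overlap for 17.2% of tested genes with Meis1-OE higher and 15.9% with it lower. The median over all tested genes was a log2 fold change of 0.15 with library totals and 0.01 with TMM (trimmed mean of M-values) scaling. Meis1 itself was counted 135325, 157828 and 149221 times with Meis1-OE and 39, 58 and 85 times with YFP-CTRL. Of 8 endothelial markers all 8 were tested and 1, Tek, was lower (log2 fold change -0.78, adjusted p = 0.0351, edgeR). Kdr (-1.23, adjusted p = 0.0504) and Cdh5 (-0.70, adjusted p = 0.0535) did not overlap between conditions either, and DESeq2 called 3 of the 8 lower. Among 10 fibroblast and smooth muscle markers Lum was at 0 in every library and Col1a1, Col1a2 and Col3a1 had at most 13 reads. The summed level of the 10 was 15.8 to 17.8 CPM (reads scaled to the normalized size of the library) in Meis1-OE and 34.9 to 54.2 CPM in YFP-CTRL EC, most of it from Pdgfra, at 11.9, 11.8 and 11.7 CPM against 33.3, 49.1 and 15.6 CPM (adjusted p = 0.0598, edgeR), and in YFP-CTRL library C from Acta2 at 19.9 CPM. The summed level of 8 macrophage markers was at most 1.48 CPM, with C1qa, C1qb, Tyrobp and Adgre1 at 0. The part of these markers in the values below was not tested.

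Hmga2 (chr10:120361268-120476469, GRCm38.p6) encodes the HMGA protein that is typical of early development. It was counted 43028, 40055 and 40578 times with Meis1-OE and 53036, 73330 and 59988 times with YFP-CTRL. After TMM normalization these were 941, 882 and 876 CPM in Meis1-OE and 1561, 1797 and 1320 CPM in YFP-CTRL EC. The highest Meis1-OE library lay below the lowest YFP-CTRL library. The mean was 900 ± 35.9 CPM in Meis1-OE (SD, n = 3) and 1560 ± 239 CPM in YFP-CTRL (SD, n = 3), a log2 fold change of -0.79 (SE 0.14), which ran from -0.91 to -0.60 over all the alternatives tried and is part of why the set was chosen. Because this is bulk RNA, fewer cells with Hmga2 and less Hmga2 RNA per cell cannot be told apart.

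Hmga2 was among the more abundant mRNAs of these adult EC on a per-length scale as well. Per kilobase of annotated exon its mean level was 133 CPM in Meis1-OE and 230 CPM in YFP-CTRL EC, ranks 263 and 159 of 13342 tested genes with an exon length. On the same per-kilobase scale Pecam1, which encodes the sorted surface protein CD31, stood at 211 and 228 CPM, and Cdh5, which encodes VE-cadherin (VEC), at 330 and 538 CPM. In YFP-CTRL EC the per-length level of Hmga2 was thus next to that of Pecam1, rank 162, and no test was made between the genes.

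Hmga1 (chr17:27556574-27563672) encodes the second HMGA protein, which is common in proliferating cells. It was counted 6819, 6531 and 6959 times with Meis1-OE and 8833, 11763 and 10046 times with YFP-CTRL. These were 149, 144 and 150 CPM against 260, 288 and 221 CPM, again with no overlap. Hmga1 fell in Meis1-OE EC by 0.80 on the log2 scale (SE 0.12, adjusted p = 0.0143, edgeR), with means of 148 ± 3.42 CPM and 256 ± 33.8 CPM (SD, n = 3). Besides Hmga2, 2 members were tested and Hmga1 was the 1 called, beside 2.73% of all genes called lower. The call was lost when any 1 Meis1-OE library or YFP-CTRL library B was left out (highest adjusted p 0.112), and it was strongest with DESeq2 (adjusted p = 5.43e-05). Without Meis1-OE library A, B or C or YFP-CTRL library B, 0.42%, 0.097%, 0.11% and 0.40% of all genes were called lower. The log2 fold change of Hmga1 in those fits was -0.80, -0.77, -0.81 and -0.69.

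The table also lists Hmga1b (chr11:120762794-120764392), a near-identical copy of Hmga1. Their annotated transcripts were 99.8% identical over 1602 aligned positions, and 84.0% of all windows of 75 bases in Hmga1b occurred unchanged in Hmga1, so how reads were split between these genes is uncertain. Hmga1b took 74.8% to 77.0% of the reads of the pair in every library. Its level was 501, 445 and 454 CPM in Meis1-OE and 827, 856 and 664 CPM in YFP-CTRL EC (log2 fold change -0.75, SE 0.13, adjusted p = 0.0215, edgeR), and its call was lost in the same cases as that of Hmga1 (highest adjusted p 0.144 with a library left out, 0.107 with the proliferation score below as a covariate). Summed into a single gene, the pair stood at 650, 589 and 604 CPM with Meis1-OE and at 1087, 1144 and 885 CPM with YFP-CTRL. The summed pair fell by 0.76 on the log2 scale (SE 0.13, adjusted p = 0.0197, edgeR), so the difference did not depend on the split.

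The HMGA genes kept nearly the same proportion in all libraries. The ratio of Hmga2 reads to reads of the Hmga1 pair lay between 1.44 in YFP-CTRL library A and 1.57 in YFP-CTRL library B, and it was 1.45 in Meis1-OE libraries A and C. Over the 6 libraries the Pearson r of log2(CPM + 1) with Hmga2 was 0.996 for Hmga1, rank 8 of 10221 genes with a mean of at least 5 CPM, 0.992 for Hmga1b, rank 22, and 0.769 for Igf2bp2, rank 2270. The 5 genes most like Hmga2 by this measure were Rasal2 (r = 0.999), Cct7 (0.999), Plcl2 (0.999), Prickle1 (0.998) and Smim3 (0.998). With 6 libraries that differ by condition these values describe the pattern only. Rasal2 encodes a Ras GTPase-activating protein and Cct7 a subunit of the chaperonin that folds actin and tubulin. Prickle1, a planar cell polarity gene, showed the widest difference of the 5, with 37.6, 32.9 and 35.5 CPM in Meis1-OE and 81.0, 97.5 and 61.8 CPM in YFP-CTRL EC.

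**Figure D1:**
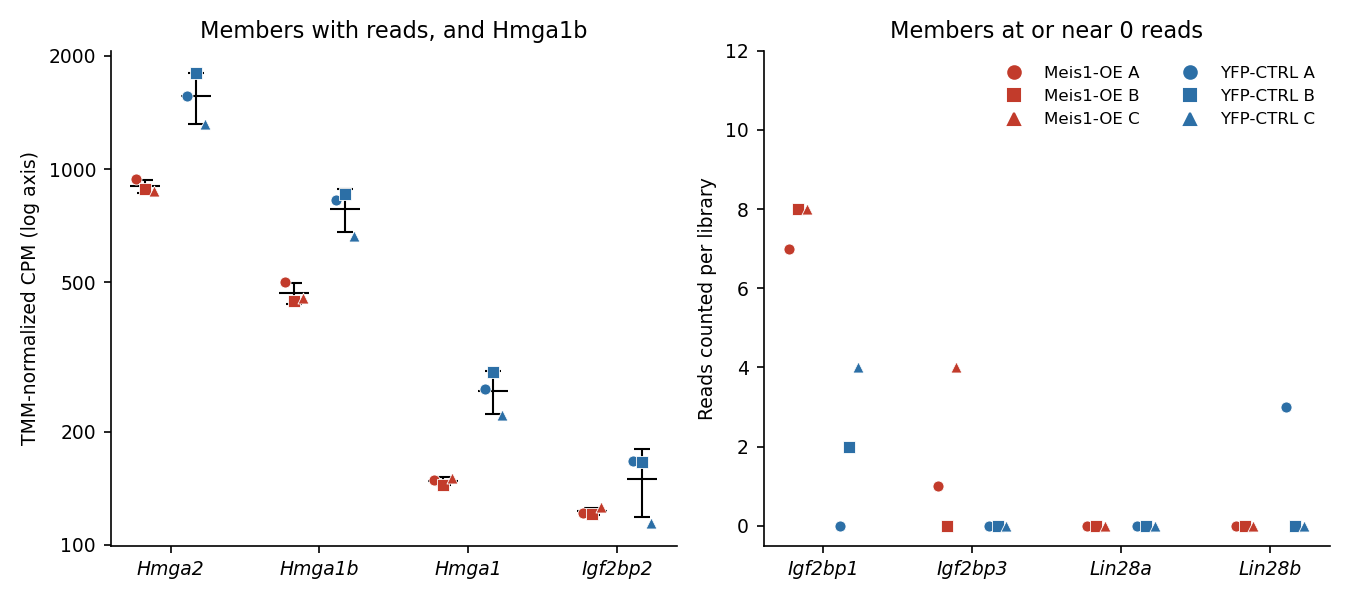
Levels of the Hmga, Igf2bp and Lin28 genes and of Hmga1b in each library. The left panel plots TMM-normalized CPM on a log axis with the mean and SD of 3 libraries, and the right panel plots reads counted per library. Hmga2, Hmga1b and Hmga1 did not overlap between conditions, Igf2bp2 did through YFP-CTRL library C at 114 CPM, and the 4 genes on the right had at most 8 reads in any library.

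Igf2bp2 (chr16:22059009-22163299), the family member that adult cells most commonly express, was counted 5550, 5489 and 5833 times with Meis1-OE and 5692, 6793 and 5190 times with YFP-CTRL. Its level was 121, 121 and 126 CPM in Meis1-OE against 168, 167 and 114 CPM in YFP-CTRL EC. YFP-CTRL libraries A and B lay above all Meis1-OE libraries and library C below them. The log2 fold change was -0.28 (SE 0.16, adjusted p = 0.307, edgeR), with means of 123 ± 2.78 CPM and 149 ± 30.5 CPM (SD, n = 3). Igf2bp2 was called lower when YFP-CTRL library C was left out (-0.46, adjusted p = 0.00626, edgeR), beside 15.2% of all genes in that fit. Its log2 fold change was 0.11 with the proliferation score below as a covariate, and the adjusted p ran from 0.00626 to 0.719 over all alternatives. Per kilobase of exon its level was 17.2 CPM in Meis1-OE and 21.0 CPM in YFP-CTRL EC, ranks 2846 and 2429.

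The other Igf2bp genes, which are oncofetal and mostly silent in adult tissue, were barely detected. Igf2bp1 (chr11:95957163-96005944) had 7, 8 and 8 reads with Meis1-OE and 0, 2 and 4 reads with YFP-CTRL. Every Meis1-OE library lay above every YFP-CTRL library, at a summed level of 0.176 CPM (95% exact Poisson interval 0.111 to 0.263) against 0.0474 CPM (0.0174 to 0.103), intervals that cover counting error only. It did not pass the filter on low counts, and with no filter edgeR gave a log2 fold change of 1.73 (adjusted p = 0.297). Igf2bp3 (chr6:49085218-49215469) had 1, 0 and 4 reads in Meis1-OE libraries and 0 in each YFP-CTRL library, a difference that was not past the threshold with no filter (adjusted p = 0.388, edgeR).

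Lin28a (chr4:134003330-134019196) had 0 reads in all 6 libraries. A count of 0 allows up to 3 reads over each condition, a one-sided 95% limit of 0.0229 CPM in Meis1-OE and 0.0237 CPM in YFP-CTRL EC. Lin28b (chr10:45376617-45486314) had 3 reads in YFP-CTRL library A and 0 in the other 5 libraries (adjusted p = 0.496 with no filter, edgeR). At this depth no difference in Lin28a, Lin28b or Igf2bp3 was detectable. Of the 7 members 3 passed the filter on low counts, namely Hmga1, Hmga2 and Igf2bp2, and the other 4 did not.

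On total counts the YFP-CTRL libraries had lower proliferation gene scores than the Meis1-OE libraries, and their HMGA gene levels were higher. The proliferation score, the mean log2(CPM + 1) of 15 cell cycle genes, was 6.81, 6.70 and 6.73 with Meis1-OE and 4.67, 5.31 and 6.59 with YFP-CTRL. Its CPM came from total counts, without the TMM factors of 1.10, 1.03 and 1.02 for Meis1-OE and 0.994, 0.915 and 0.948 for YFP-CTRL. Dividing by these factors would lower the Meis1-OE scores and raise the YFP-CTRL scores. Whether YFP-CTRL library C lies below the Meis1-OE range therefore depends on the scaling. Mki67 stood at 672, 660 and 628 CPM in Meis1-OE against 63.8, 205 and 589 CPM in YFP-CTRL EC. None of the 15 genes was called by edgeR, and DESeq2 called 1 higher, beside 6.21% of all genes. At an unadjusted p under 0.05 there were 2, beside 26.2% of all genes. The median log2 fold change of the 15 was 0.87. Without overlap 5 were higher and none lower, beside 17.2% and 15.9% of all tested genes. When YFP-CTRL library C was left out, 14 were called higher, beside 16.5% of all genes in that fit. YFP-CTRL library C, whose score was close to the Meis1-OE range, had 1320 CPM of Hmga2 and 885 CPM of the Hmga1 pair, above every Meis1-OE library and below the other 2 YFP-CTRL libraries. With the score as a covariate the log2 fold change of Hmga2 was -0.60 and that of Hmga1 was -0.61 (SE 0.13, adjusted p = 0.0678, edgeR), no longer past the threshold. In that fit 0.95% of all genes were called lower, against 2.73% in the main fit. On total counts the score did not overlap between the conditions, so its part and that of Meis1 cannot be told apart.

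**Figure D2:**
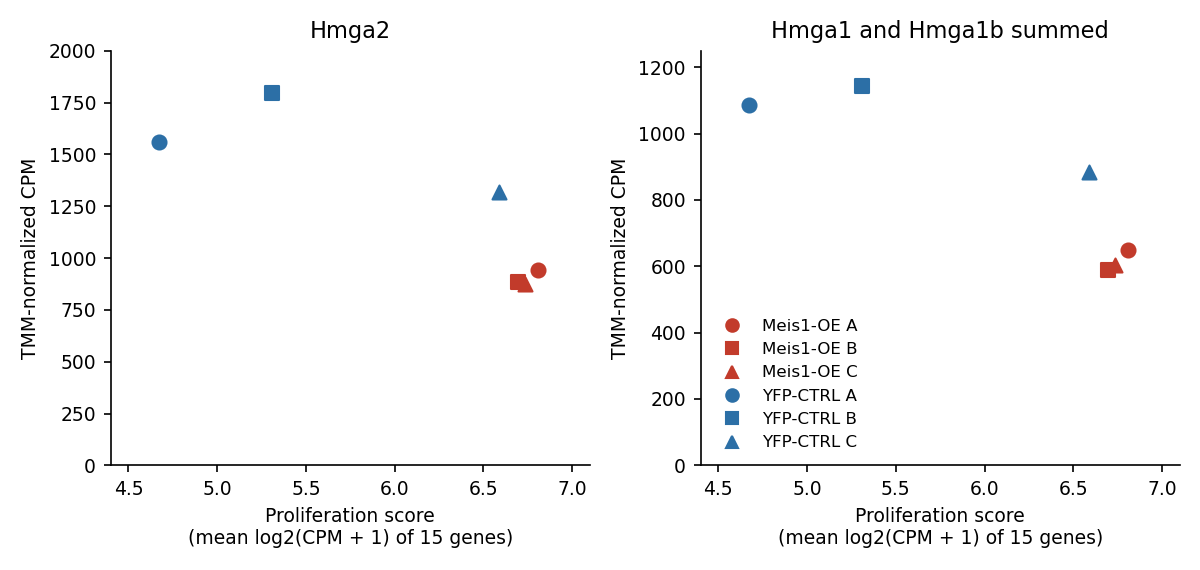
Level of Hmga2 (left) and of Hmga1 and Hmga1b summed (right) in TMM-normalized CPM against the proliferation score of each library. The score is the mean log2(CPM + 1) of 15 cell cycle genes, with CPM from total counts. The Meis1-OE libraries cluster at scores of 6.70 to 6.81, and YFP-CTRL library C at 6.59 lies above them in both panels.

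Genes that make, process, load or break down let-7 were mostly expressed, and none was called by edgeR. The list mixes roles, since Dis3l2 acts in the decay of pre-let-7 and Hnrnpa1 hinders its processing. Its median and counts therefore give no direction for let-7. Of 19 listed, 18 were tested, Ago4 had at most 1 read in any library, none was called in either direction, 6 had an unadjusted p under 0.05 (26.2% of all genes), and DESeq2 called Tnrc6a higher and Xpo5 lower. The median log2 fold change of the list was -0.14, against 0.01 for all tested genes, and 8 genes were lower and 2 higher without overlap, beside 15.9% and 17.2% of all tested genes. Ago2, the Argonaute with slicer activity, stood at 370, 379 and 392 CPM in Meis1-OE and 492, 479 and 445 CPM in YFP-CTRL EC (log2 fold change -0.31, adjusted p = 0.103, edgeR), and these values did not overlap. Hnrnpa1, an RNA-binding protein that acts on let-7 precursors, stood at 351, 378 and 353 CPM against 262, 348 and 410 CPM (log2 fold change 0.09, adjusted p = 0.788, edgeR). Drosha and Dicer1, the nucleases of microRNA maturation, stood at 86.6 ± 0.617 and 115 ± 3.71 CPM in Meis1-OE and at 105 ± 2.58 and 126 ± 3.98 CPM in YFP-CTRL cells (SD, n = 3). Neither was called by edgeR (adjusted p = 0.123 and 0.417), and both were chosen as examples after their values were seen. Without YFP-CTRL library C, 3 genes of the list were called higher and 7 lower, beside 16.5% and 15.2% of all genes in that fit.

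Most other let-7 targets did not pass the test. Of 31 listed, 27 were tested, 3 were called lower and none higher by edgeR, beside 2.73% and 4.14% of all genes, and the median log2 fold change was -0.07. Of the list, 20 of 30 genes with an annotated 3' UTR (66.7%) held the seed match. The 3 that fell were Map4k3, Myc and Ccnd2, of which Map4k3 held 1 match and Myc and Ccnd2 held none. DESeq2 also called Cdc34, which holds a match, lower (log2 fold change -0.58, adjusted p = 0.00951), as did edgeR with the size factors of DESeq2 (adjusted p = 0.0498), against an adjusted p of 0.0576 in edgeR with TMM. Map4k3, a kinase that activates amino acid signaling to mTORC1, stood at 85.3, 83.0 and 91.4 CPM in Meis1-OE and 145, 159 and 129 CPM in YFP-CTRL EC. Its log2 fold change was -0.74 (SE 0.12, adjusted p = 0.0146, edgeR).

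Myc, the growth-promoting transcription factor, stood at 71.6, 60.9 and 64.4 CPM in Meis1-OE and 285, 189 and 126 CPM in YFP-CTRL EC. It fell by 1.61 on the log2 scale (SE 0.28, adjusted p = 0.0201, edgeR), and by 0.82 with the proliferation score as a covariate. Ccnd2, a D-type cyclin, stood at 190, 227 and 206 CPM against 427, 516 and 309 CPM and fell by 1.01 (SE 0.19, adjusted p = 0.0279, edgeR). These 3 genes did not overlap between conditions. Each lost its call when any 1 Meis1-OE library or YFP-CTRL library B was left out, Ccnd2 also without YFP-CTRL library A, and adjusted p values over all alternatives reached 0.120 for Map4k3, 0.118 for Myc and 0.173 for Ccnd2.

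Without YFP-CTRL library C, 5 let-7 targets were called higher and 7 lower, beside 16.5% and 15.2% of all genes in that fit. Ccnd1, another D-type cyclin, stood at 1960 ± 67.4 CPM in Meis1-OE and 2263 ± 555 CPM in YFP-CTRL cells (SD, n = 3, adjusted p = 0.523, edgeR). Cdk6, the kinase that D-type cyclins activate, stood at 343, 358 and 342 CPM against 371, 485 and 446 CPM (log2 fold change -0.32, adjusted p = 0.160, edgeR). Thbs1, which encodes thrombospondin-1, stood at 328, 299 and 263 CPM against 61.6, 98.8 and 343 CPM (log2 fold change 0.82, adjusted p = 0.398, edgeR). Trim71, a fetal let-7 target in stem cells, Igdcc3, Gatm and Acvr1c were under 0.15 CPM in every library and were not tested.

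Across all tested protein-coding genes with an annotated 3' UTR (95.9% had one), the 1232 with a seed match had a median log2 fold change of 0.01 and the 10402 without a match had a median of 0.01. Of those with a match 4.14% were called lower and 6.41% higher, against 3.28% and 5.10% of those without. Genes with a match also had longer 3' UTRs, with a median of 2171.5 bases against 1070 bases.

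**Figure D3:**
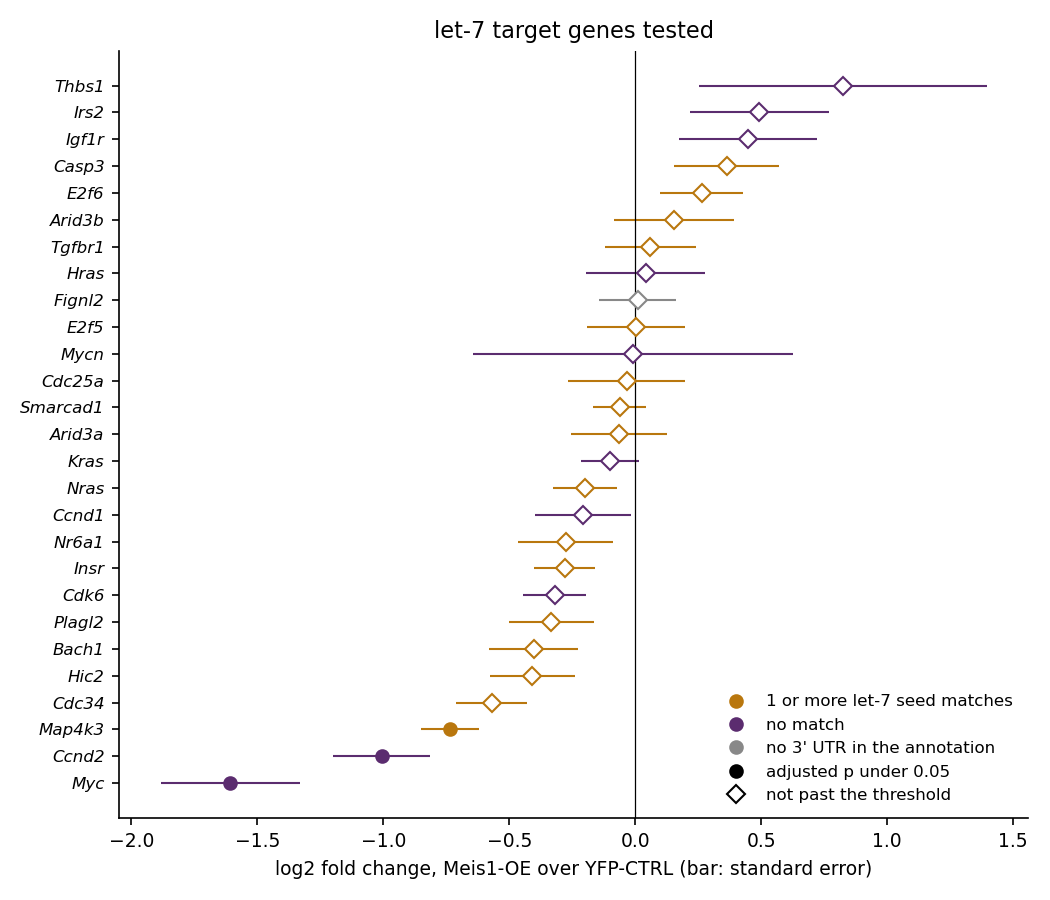
Log2 fold change, Meis1-OE over YFP-CTRL, with its standard error for the 27 tested let-7 target genes, colored by whether the annotated 3' UTR holds the seed match. Filled points are the 3 genes past the adjusted p threshold of 0.05, all lower in Meis1-OE, of which 1 holds a match.

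Genes of the insulin-like growth factor (IGF) system, which includes the Igf2 mRNA that names the Igf2bp family, changed in both directions. Of 11 listed, 10 were tested, 4 were called higher and 2 lower by edgeR, beside 4.14% and 2.73% of all genes, and the median log2 fold change was 1.17. Igf2, the fetal growth factor, stood at 8.86, 22.2 and 24.4 CPM in Meis1-OE and 2.0, 2.70 and 1.89 CPM in YFP-CTRL EC. It rose by 3.07 on the log2 scale (SE 0.40, adjusted p = 0.00933, edgeR) and was called whichever library was left out, but its adjusted p was 0.0582 with the proliferation score as a covariate. H19, the noncoding RNA of the same imprinted locus, rose from 0.222 ± 0.0367 to 0.575 ± 0.0861 CPM (SD, n = 3, log2 fold change 1.35, adjusted p = 0.0492, edgeR), a call that was lost without any 1 library other than YFP-CTRL C and with DESeq2 (adjusted p = 0.0751).

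Irs1, the adaptor of the insulin and IGF1 receptors, stood at 11.5, 17.4 and 16.0 CPM in Meis1-OE and 4.92, 2.23 and 3.50 CPM in YFP-CTRL EC (log2 fold change 2.08, SE 0.31, adjusted p = 0.0123, edgeR). Without Meis1-OE library B or C its call was lost (adjusted p up to 0.0725). The IGF-binding proteins that were called went in opposite directions. Igfbp3 stood at 1353, 1365 and 1548 CPM against 168, 335 and 447 CPM and rose by 2.17 (SE 0.33, adjusted p = 0.0135, edgeR), a call that was lost without any 1 Meis1-OE library or YFP-CTRL library B (highest adjusted p 0.0753). In those fits at most 2.02% of all genes were called higher.

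Igfbp4 stood at 776, 686 and 666 CPM in Meis1-OE against 1616, 1669 and 1598 CPM in YFP-CTRL EC. It fell by 1.20 on the log2 scale (SE 0.11, adjusted p = 0.00304, edgeR) and kept its call under every alternative tried. Igfbp5 stood at 0.153, 1.70 and 1.47 CPM against 6.33, 10.7 and 7.06 CPM and fell by 2.86 (SE 0.67), at the edge of the threshold (adjusted p = 0.04998, edgeR) and not past it with library totals (adjusted p = 0.0514), TMM without the most abundant gene (0.0508), a robust fit (0.0534) or the proliferation score as a covariate (0.132), or without Meis1-OE library B or C or YFP-CTRL library A or B. Igf1r and Insr, receptors of the system that were counted with the let-7 targets, were not called.

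**Figure D4:**
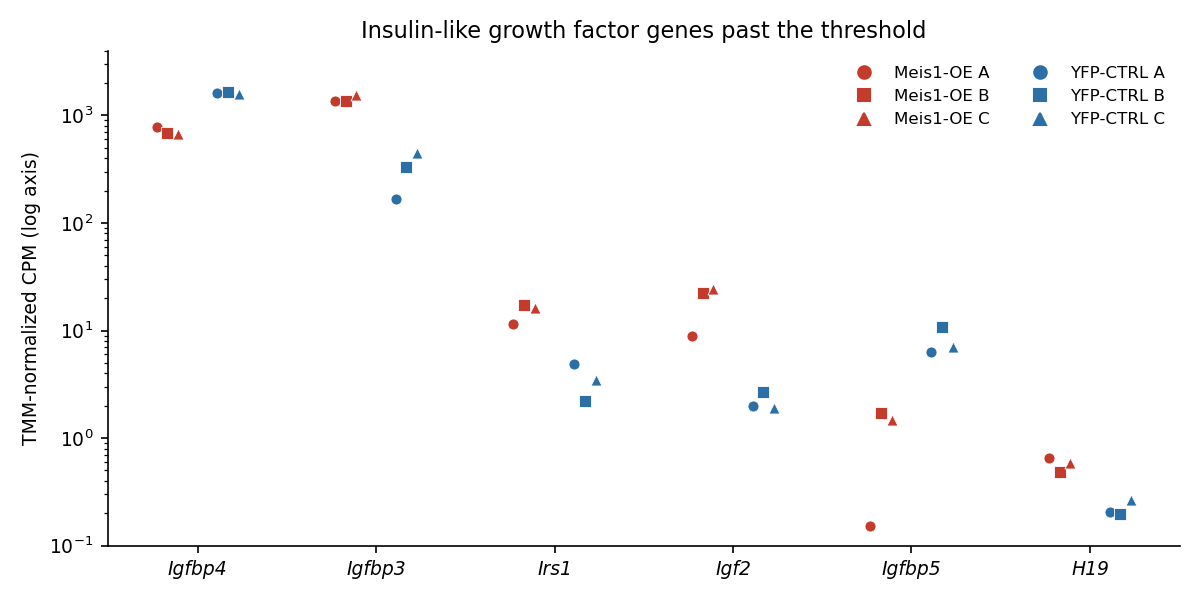
TMM-normalized CPM on a log axis for the 6 IGF system genes past the threshold, 1 point per library. Igfbp3, Irs1, Igf2 and H19 lie higher in the 3 Meis1-OE libraries and Igfbp4 and Igfbp5 lower, with no overlap.

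Genes that have been linked to HMGA2, which represses the Ink4 locus in stem cells and takes part in epithelial to mesenchymal transition, were examined as well. Of 9 listed, 8 were tested, 2 were called lower and none higher by edgeR (2.73% and 4.14% of all genes), 5 had an unadjusted p under 0.05 (26.2% of all genes), and the median log2 fold change was 0.22. Without overlap between conditions 3 were lower and 3 higher, beside 15.9% and 17.2% of all tested genes. The 3 higher were Rb1, E2f1 and Ccnb2 (log2 fold change 0.56, 0.63 and 1.14). None of them was called by edgeR, and they are given as examples after their values were seen. Cdkn2b, which encodes the cell cycle inhibitor p15, stood at 39.6, 41.4 and 43.9 CPM in Meis1-OE and 100, 115 and 72.3 CPM in YFP-CTRL EC (log2 fold change -1.20, SE 0.18, adjusted p = 0.0122, edgeR). Snai2, a transition factor, stood at 13.5, 16.3 and 14.3 CPM against 75.4, 84.1 and 24.3 CPM (log2 fold change -2.06, SE 0.42, adjusted p = 0.0348, edgeR). Neither overlapped between conditions, and both lost their call without any 1 Meis1-OE library. At most 0.42% of all genes were called lower in those fits. Snai2 also lost its call without YFP-CTRL library A or B and with a replicate block (adjusted p = 0.0559, edgeR). With the proliferation score as a covariate the log2 fold changes of Cdkn2b and Snai2 were -0.83 (adjusted p = 0.0577) and -0.74 (adjusted p = 0.248). Whether genes of this list follow Hmga2 was not tested. Cdkn2a, the other inhibitor gene of the locus, stood at 18.3 ± 0.425 CPM in Meis1-OE and 23.9 ± 4.34 CPM in YFP-CTRL cells (SD, n = 3, adjusted p = 0.175, edgeR), a gene chosen as an example after its values were seen. Ccna2, a cyclin of S phase, stood at 102, 103 and 108 CPM against 13.3, 48.8 and 107 CPM (adjusted p = 0.392, edgeR), and Twist1 was at 0 in every library.

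Most other high mobility group genes did not pass the test. All 10 listed genes of the HMGB, HMGN and related families were tested, 1 was called lower and none higher by edgeR (2.73% and 4.14% of all genes), and their median log2 fold change was 0.04. Hmgn1, a nucleosome-binding protein, stood at 74.6 ± 0.365 CPM (SD, n = 3) in Meis1-OE EC, with a lowest YFP-CTRL library at 94.3 CPM (log2 fold change -0.48, SE 0.11, adjusted p = 0.046, edgeR). Its call was lost with library totals (adjusted p = 0.124) and without any 1 library other than YFP-CTRL C. Hmgb1, a DNA-bending protein, stood at 178, 197 and 186 CPM against 179, 172 and 196 CPM (log2 fold change 0.03, SE 0.10, adjusted p = 0.871, edgeR). Whether Hmga1 or Hmga2 differed from the rest of these genes in its change was not tested.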

How the data were processed

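RNA-seq covered 3 Meis1-OE and 3 YFP-CTRL libraries. Estimated counts per gene symbol, not normalized, are what the authors deposited. The genome build is mm10 per the submitters' processing notes, and the aligner, the counting tool and the annotation are not given in the sources used here. Whether strand was used in counting is not given either. Columns carry letters and labels carry numbers, and nothing matches them, so libraries were named by letter. No label says that equal letters mark pairs, so the conditions were compared without pairs. P-values measure the spread between these libraries only.

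Counts were rounded to whole numbers and analysed with edgeR 4.0.16 in R 4.3.3 (TMM, filterByExpr, quasi-likelihood test, Benjamini-Hochberg adjustment over 16065 genes, threshold 0.05). CPM values are TMM-normalized, except the summed levels of the genes near 0 and the proliferation score, which use total counts. The biological coefficient of variation was 0.233. Alternatives were DESeq2 1.42.0, its size factors in edgeR, library totals, TMM without the most abundant gene, a robust fit, no filter on low counts, a minimum of 10 counts in every library, leaving out each library, a replicate block and a proliferation covariate. Summing Hmga1 and Hmga1b was added after seeing the data. Scripts were tested on simulated data.

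Sequences came from RefSeq (GRCm38.p6), and 3' UTRs and exon lengths, by symbol, from an NCBIM37 annotation, which gave a length for 83.1% of tested genes (Biopython 1.88). Annotated 3' UTRs may be shorter than those in use. Members and gene lists were chosen with earlier results of these data known. Named genes were the members, Meis1, every called gene and the 2 most abundant genes by CPM of each let-7, IGF, HMGA2-linked and high mobility group list, the 5 genes most like Hmga2, and those the text marks as examples, with cell type markers and genes called under an alternative added after their values were seen.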

Additional observations from a re-analysis of the deposited data

How the results depend on the processing

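All genes called higher numbered 1048 with library totals, 1128 with DESeq2 and 222 with the covariate (the proliferation score), against 665, and 115 (without Meis1-OE library B) to 2717 (without YFP-CTRL library C) with 1 library left out. All genes called lower numbered 179 with library totals, 1115 with DESeq2 and 152 with the covariate, against 438, and 16 to 2498 with the same libraries left out. The let-7 machinery had 1 gene called higher with library totals, 1 higher and 1 lower with DESeq2, and 0 to 3 higher and 0 to 7 lower with 1 library left out, and the let-7 targets 0 to 5 higher and 0 to 7 lower. Among members other than Hmga2, 0 were called lower with the covariate and 0 to 2 with 1 library left out. Hmga2 was at -0.60 with the covariate and -0.91 to -0.67 with 1 library left out, and Hmga1 at -0.61 (adjusted p = 0.0678) and -0.90 to -0.69. Igf2bp2 was at 0.11 with the covariate and -0.46 to -0.19 with 1 library left out. The sign also turned with the covariate for Hnrnpa1 (-0.27), Thbs1 (-0.39), Ccna2 (-0.44) and Hmgb1 (-0.056), and with 1 library left out for Hnrnpa1 (-0.084 to 0.23) and Hmgb1 (-0.0028 to 0.079). The cause was not tested.

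Same-letter libraries deviated together with correlations of 0.245, 0.190 and 0.0809 across 16065 genes, the last under 0.1. Meis1-OE library C correlated best with YFP-CTRL library B (0.249), and the other different-letter values ran from -0.301 to -0.0275. Whether equal letters mark pairs is not labelled and stays uncertain, so the main fit did not pair them. With the letter as a replicate block the log2 fold changes of Hmga2 and Hmga1 were -0.78 and -0.79 (adjusted p = 0.0421 for Hmga1, edgeR), and 189 genes were called lower in all.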
